A study of Oryza sativa with 12 samples.

Results

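Expansins are small secreted proteins of the plant cell wall, and 29 of their genes were followed in rice panicles from 2 lines kept at high or optimal temperature. Members were the genes whose symbol or synonym, without a leading Os, is EXPA, EXPB, EXLA or EXLB and a number. The gene table held 49 such genes, of which 29 had a probe set on the array, among 17905 rice genes with one. These were 14 alpha-expansins (EXPA, of 29 annotated), 11 beta-expansins (EXPB, of 15) and all 4 expansin-like A genes (EXLA). The other 20, the single expansin-like B gene among them, were not analysed here. Each gene was read from 1 probe set, the one with the highest mean over the 12 arrays.

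Panicles came from the heat tolerant line 252 and the heat sensitive line 082, under 5 days of heat (37 °C days with 30 °C nights) or under optimal conditions (30 °C days with 25 °C nights). All 4 groups had 3 arrays, which the labels call biological replicates without saying whether they came from separate plants, so p-values measure the spread between these samples. The parents of the lines, the stage of the panicles and the time of day were not given, and line 252 and line 082 are 1 line of each kind. Values are MAS5 signals, the brightness of a probe set on a linear scale, and signals of different probe sets do not compare the levels of genes. The alpha mean minus the beta mean, given below, is read only through its differences between groups.

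Expansins loosen the wall at acidic pH without cutting its polymers, which lets a cell under turgor enlarge. Alpha-expansins act on the walls of most land plants. Grasses have an enlarged set of beta-expansins, among them the secreted group-1 allergens of grass pollen, while a loosening activity has not been shown for expansin-like A proteins. In a panicle, wall loosening accompanies the growth of rachis branches, lemma and palea, filaments and stigmas, and of the young grain.

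Of 13 markers of floret organs, mostly MADS-box genes of the flower, none was under the array median on all 3 arrays of any group, as in the labelled tissue. Other marker lists and array checks differed between the groups. The summed signal of 11 dividing-cell markers was 1481 to 2066 in heated 252 panicles against 18681 to 25555 at optimal temperature in line 252, and 1357 to 1844 in heated 082 panicles against 10845 to 18127 at optimal temperature in line 082, and all 11 were called lower in both lines. The summed signal of 12 grain endosperm markers was 184 to 814 on the heated arrays, 551 to 16906 in line 252 at optimal temperature and 232163 to 314794 in line 082 at optimal temperature. In line 252 at optimal temperature 8 of the 12 were under the array median on all 3 arrays and replicate 1 alone reached the upper value, while in line 082 at that temperature 1 of the 12 was. The 6 markers of tapetum and developing pollen summed to 497 at most on any array, and 3 of green leaf to 53157 to 71399 on heated arrays against 39467 to 48619 on the others. The 3'/5' signal ratio of the Dap control probe sets was 11.2 to 13.2 on heated arrays against 1.58 to 1.98 on the others. That of the Thr controls was 17.3 to 28.1 against 2.87 to 4.68, and of Phe 3.48 to 4.98 against 0.853 to 1.41. For Lys it was 3.94 to 6.11 against 2.27 to 3.25. The array medians were 36.5 to 41.9 on heated arrays against 55.1 to 68.4. The same ratio of the rice actin probe sets split the groups otherwise, at 21.9 to 33.2 on heated arrays and 26.5 to 34.9 in line 252 at optimal temperature against 4.29 to 7.02 in line 082 at optimal temperature, and that of rice Gapdh was 4.82 to 15.8 in the same 3 groups against 2.17 at most in line 082 at optimal temperature. Line 082 at optimal temperature thus stood apart in both rice ratios, and it enters the heat change in line 082, the difference of heat changes and the line difference at optimal temperature. The part of these differences in the expansin results was not tested, and fewer cells of a type and less RNA per cell cannot be told apart in whole panicles. The control ratios split fully by temperature in both lines, so heat and array processing cannot be told apart in the heat changes.

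A filter on dim probe sets, above the array median on at least 3 arrays, left 24 of the 29 expansins to test. Replicate 3 of heated line 252 stood apart for them. It was the highest of its group for 15 of the 24 (62.5%), against 37.9% of all probe sets tested, and it exceeded both other arrays by more than 2 times for 8 of them, against 6.55% of all probe sets tested. Results that rest on it are given with and without it.

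Most expansins were lower after heat in both lines, and 1 gene, EXLA1, was much higher in both. A gene counted as called when limma gave it an adjusted p below 0.05 and a log2 change of 1 or more in size. In line 252, 11 of the 24 tested expansins fell and 1 rose, a share of 50.0% against 28.8% of all 33614 probe sets tested. In line 082, 14 fell and 1 rose, a share of 62.5% against 36.1% of all probe sets tested. The 11 in line 252 include EXPA32 and EXPB10, which passed the filter on dim probe sets through the optimal arrays of that line. Their place among the 11 was thus favoured by the filter. The falls alone can be read against 19.4% of all probe sets called lower in line 252 and 21.9% in line 082. Over all 29 members, bright or dim, the median log2 change was -0.86 in line 252 and -1.09 in line 082, against -0.16 and -0.20 over all 57194 rice probe sets. Members below 0 numbered 25 of 29 in line 252 and 27 of 29 in line 082, against 34648 and 34827 of all 57194 rice probe sets.

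The count of members on the lower side was similar under other scalings of the arrays, while the count of calls was not. Heat moved the median of all tested probe sets by -0.20 in line 252 and -0.15 in line 082 as deposited, by 0.07 and 0.13 after quantile normalization, by 0.07 and 0.02 with arrays centred at their 75th percentile, and by -0.59 and -0.25 after scaling to the hybridization spikes. The expansins below that median numbered 20 of 24 in line 252 as deposited and 19 or 20 under the other 3 scalings. In line 082 they numbered 22 as deposited and 21 or 22 under the others. Quantile normalization changed the calls in line 082 to 2 higher and 9 lower. Of all 33614 probe sets tested, 6227 were then called higher and 5435 lower there, against 4788 and 7354 as deposited. Scaling to the hybridization spikes changed the expansin calls in line 252 to 1 higher and 15 lower. Of all probe sets tested, 1674 were then called higher and 10288 lower there, against 3167 and 6523 as deposited. A log2 change of a dim gene is smaller than its ratio, because 16 was added to each signal before the log was taken.

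**Figure D1:**
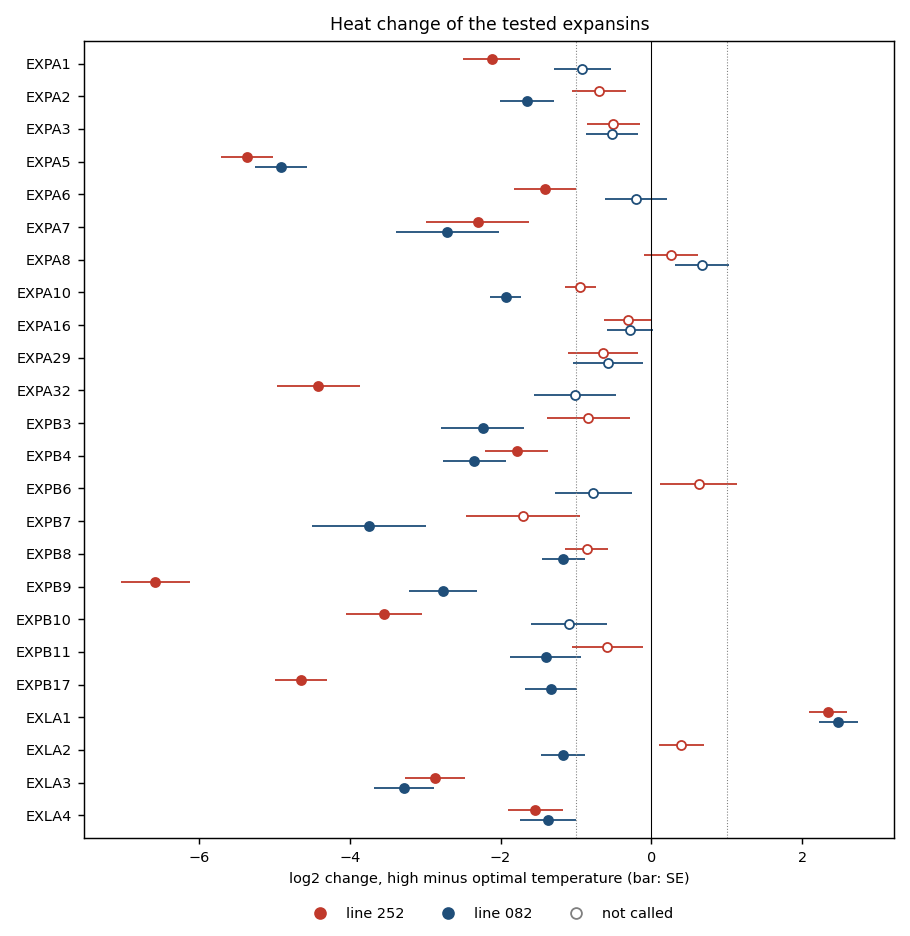
Log2 change of each of the 24 tested expansins, high minus optimal temperature (x axis), in line 252 (red) and line 082 (blue), with bars of 1 SE and open points where the gene was not called. Points of 20 genes in line 252 and 22 in line 082 lie left of 0, and EXLA1 lies far right in both lines.

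Of the alpha-expansins, 5 of 11 tested fell in line 252 and 4 of 11 in line 082, and the others were not called. The 5 include EXPA32, which the filter on dim probe sets favoured, as given above. EXPA5 and EXPA7 fell in both lines. EXPA5 gave signals of 15.5, 47.5 and 54.3 in heated 252 panicles against 2697, 1859 and 1911 at optimal temperature. In line 082 it gave 34.2, 38.3 and 11.5 in heated panicles against 951, 1543 and 1343 at optimal temperature. All 6 heated arrays lay far under all 6 others, near or under the array median. The log2 change of EXPA5 was -5.36 ± 0.35 (SE) in line 252 (adjusted p = 2.96e-07) and -4.91 ± 0.35 in line 082 (adjusted p = 4.61e-07). The difference between these changes was -0.45 ± 0.49 (adjusted p = 0.529).

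EXPA7 gave 179, 249.6 and 2067 in heated 252 panicles against 2084, 2829 and 2169 at optimal temperature. In line 082 it gave 649.7, 276 and 215 in heated panicles against 1941, 2808 and 2239 at optimal temperature. The heated and optimal arrays did not overlap in either line, but replicate 3 of heated line 252 came within reach of the optimal arrays. On the log2 scale its difference between temperatures was -2.31 ± 0.68 in line 252 (adjusted p = 0.0146) and -2.71 ± 0.68 in line 082 (adjusted p = 0.00473). Without heated replicate 3 of line 252 the change there was -3.37 ± 0.37 (adjusted p = 2.52e-05). The call in line 252 was lost without heated replicate 1 (-1.66, adjusted p = 0.0669) or heated replicate 2 (-1.88, adjusted p = 0.0665). EXPA7 is also read by a dimmer tested probe set, which had a log2 change of 1.08 ± 0.43 in line 252 (adjusted p = 0.0585) and -0.57 ± 0.43 in line 082 (adjusted p = 0.289), so its probe sets disagree. The call in line 252 was also lost with the mean of its probe sets (-0.61, adjusted p = 0.204).

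**Figure D2:**
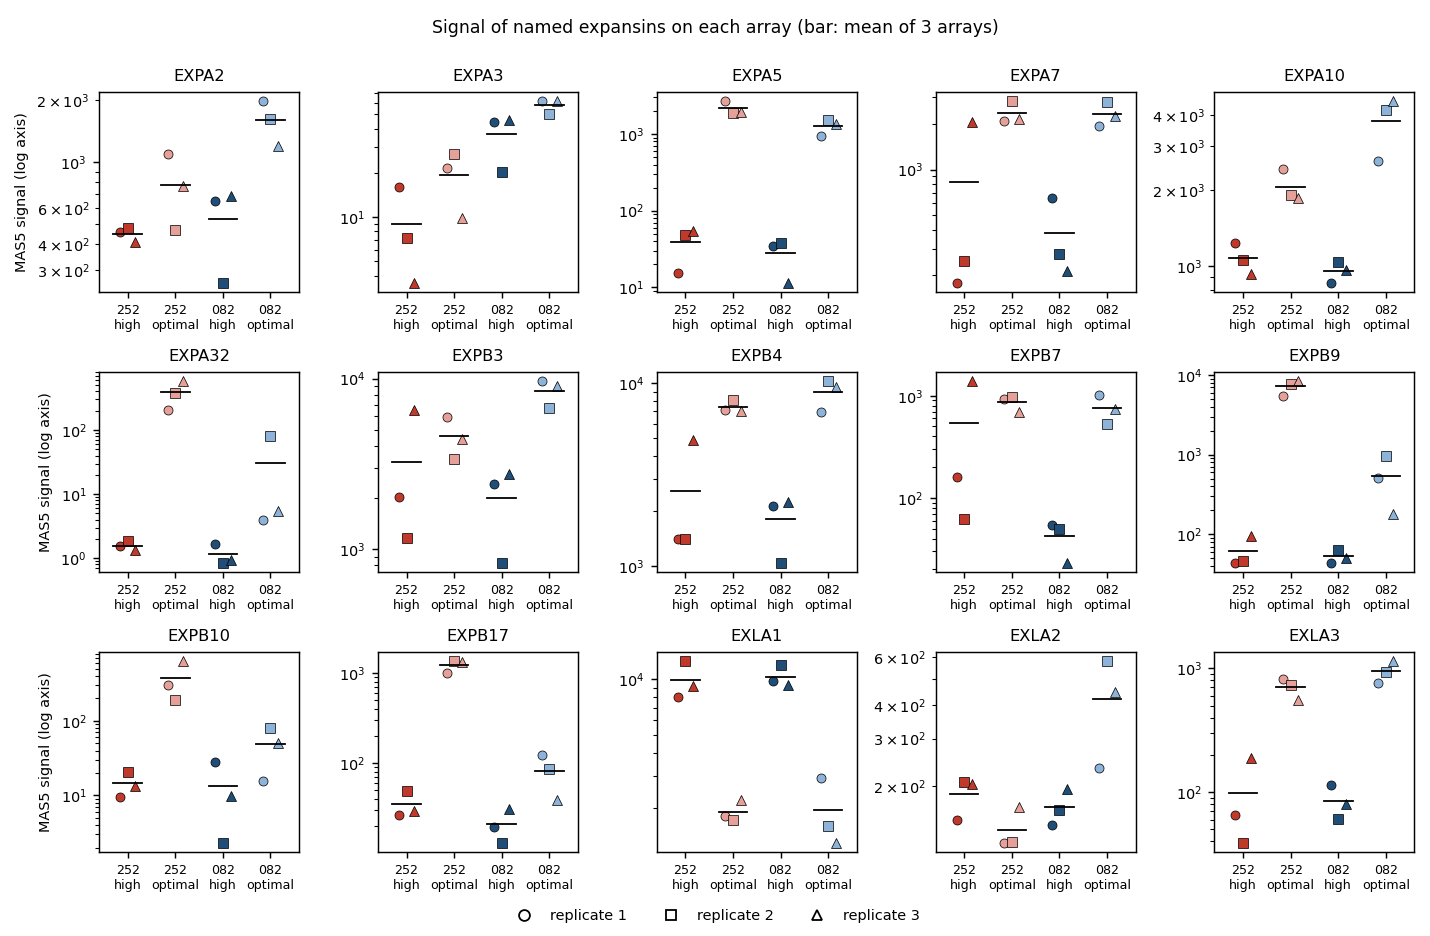
MAS5 signal (log axis) of 15 expansins on each of the 12 arrays, by line and temperature, with circles, squares and triangles for replicates 1, 2 and 3 and a bar at the mean of 3 arrays. EXPA5 lies at 11.5 to 54.3 on the heated arrays and at 951 to 2697 on the others, and EXPB9 separates the lines at optimal temperature.

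Beta-expansins fell at 4 of 9 tested genes in line 252 and 7 of 9 in line 082, and the others were not called. These counts moved with the scaling, to 4 of 9 in line 082 after quantile normalization, where 4 of 11 alpha-expansins fell and 1 rose, and to 6 of 9 in line 252 with spike scaling, where 7 of 11 alpha-expansins fell. Calls over all probe sets moved under these scalings too, as given above. The 4 of 9 in line 252 include EXPB10, which the filter on dim probe sets favoured. EXPB9, of the group-1 pollen allergen branch, had the largest fall of the tested expansins in line 252, except with 1 added to each signal, when EXPA32 did. It gave 44.1, 46.4 and 95.4 in heated 252 panicles against 5513, 7746 and 8412 at optimal temperature, and 44.1, 63.8 and 50.2 in heated 082 panicles against 502, 956 and 182 at optimal temperature. The heated arrays of the 2 lines overlapped, while the optimal arrays of line 252 lay well above those of line 082. Its log2 change was -6.57 ± 0.45 in line 252 (adjusted p = 5.02e-07) and -2.77 ± 0.45 in line 082 (adjusted p = 0.000238).

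EXPB17 followed the same order of groups on the probe set used. The gene's other probe set, too dim to be tested, did not. Its means were 30.9 in heated 252 panicles against 27.2 at optimal temperature, and 27.1 against 31.0 in line 082. The probe set used gave 26.4, 48.7 and 29.1 in heated 252 panicles against 1008, 1366 and 1344 at optimal temperature, and 19.4, 13.0 and 30.8 in heated 082 panicles against 121, 86.5 and 39.0 at optimal temperature. Heated and optimal arrays did not overlap in either line. The log2 change was -4.64 ± 0.34 in line 252 (adjusted p = 8.35e-07) and -1.34 ± 0.34 in line 082 (adjusted p = 0.00543). The call in line 082 was lost after quantile normalization (-0.86, adjusted p = 0.0600), with 64 added to each signal (-0.75) and with the mean of its 2 probe sets (-0.67, adjusted p = 0.0765).

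EXPB4 was bright in every group. It gave 1397, 1412 and 4914 in heated 252 panicles against 7161, 8065 and 7002 at optimal temperature, and 2128, 1044 and 2246 in heated 082 panicles against 6938, 10279.8 and 9469.6 at optimal temperature. Neither pair of groups overlapped. On the log2 scale its difference between temperatures was -1.78 ± 0.42 in line 252 (adjusted p = 0.00373), or -2.38 ± 0.28 without heated replicate 3, and -2.35 ± 0.42 in line 082 (adjusted p = 0.000436). Its probe set is of a kind that Affymetrix marks as shared by several transcripts, so a near copy may contribute.

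The 4 expansin-like A genes went both ways. EXLA1 rose and EXLA3 and EXLA4 fell in both lines, and EXLA2 fell in line 082. EXLA1 gave 8028, 12584 and 9183 in heated 252 panicles against 1821, 1737 and 2216 at optimal temperature, and 9740.1, 11892 and 9363 in heated 082 panicles against 2938, 1603 and 1308 at optimal temperature. Every heated array was above every other array. Its log2 change was 2.34 ± 0.26 in line 252 (adjusted p = 1.58e-05) and 2.48 ± 0.26 in line 082 (adjusted p = 7.41e-06), against 9.42% of all tested probe sets called higher in line 252 and 14.2% in line 082.

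EXLA3 moved the other way by a similar amount. It gave 65.0, 39.1 and 189 in heated 252 panicles against 821, 729 and 555 at optimal temperature, and 113, 60.4 and 79.9 in heated 082 panicles against 766, 926 and 1148 at optimal temperature. The highest heated array was again replicate 3 of line 252, still under every array at optimal temperature. The log2 change was -2.87 ± 0.40 in line 252 (adjusted p = 9.32e-05) and -3.28 ± 0.40 in line 082 (adjusted p = 2.40e-05). EXLA4 changed by -1.54 ± 0.37 in line 252 and -1.37 ± 0.37 in line 082, and the call in line 082 was lost after quantile normalization (-0.93, adjusted p = 0.0328).

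**Figure D3:**
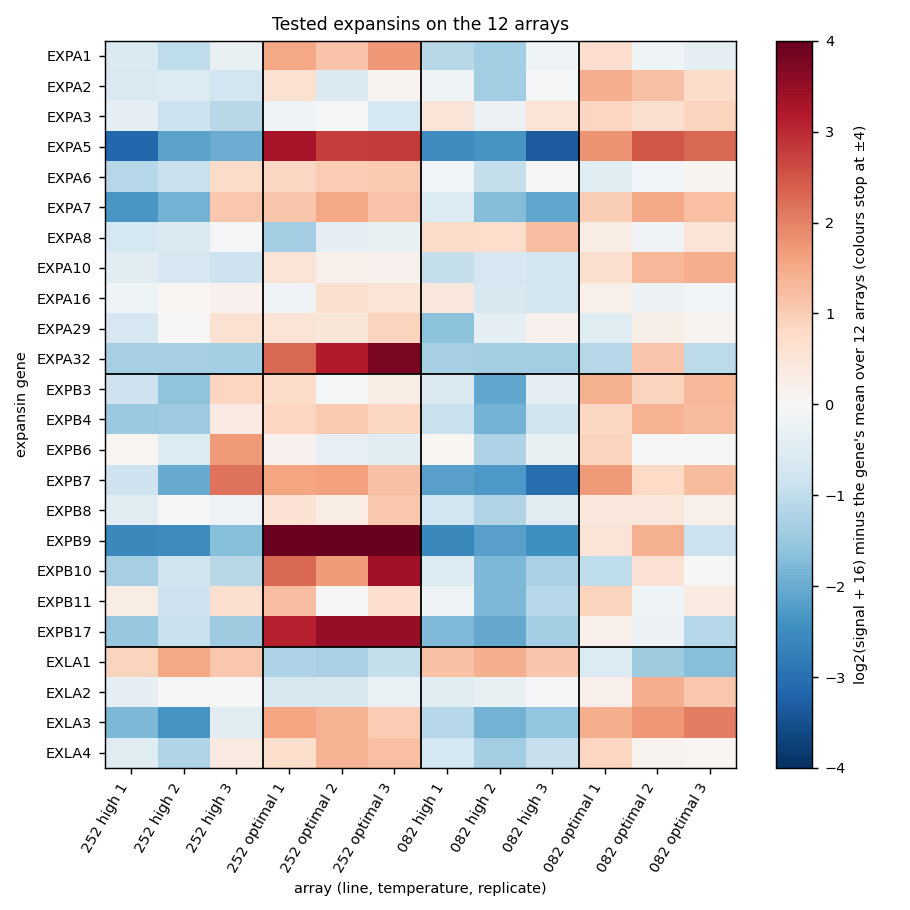
Log2(signal + 16) of the 24 tested expansins on the 12 arrays, each minus the gene's own mean over the arrays (red above it, blue under it, colours stopping at 4 either way), with alpha-, beta- and expansin-like A genes in blocks. EXPA5 and EXPB9 are blue on all heated arrays, EXLA1 is red there, and heated replicate 3 of line 252 is redder than its group for EXPA7, EXPB3, EXPB4, EXPB6 and EXPB7.

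In both lines 7 expansins fell and 1 rose, 4 were called in line 252 alone, 7 in line 082 alone and 5 in neither. Of all probe sets tested, 9.60% fell and 5.02% rose in both lines, 13.2% were called in line 252 alone, 20.4% in line 082 alone, 1.05% in opposite directions and 50.7% in neither. A call in 1 line alone does not show that the lines differ, so the difference of the heat changes (252 minus 082) was tested itself. It was called for 5 of 24 expansins, 4 with the lower change in line 252 and 1 with the higher change, or 20.8% against 23.3% of all probe sets tested (12.3% of all had a called lower change in line 252). The expansins' share was thus near that of all probe sets. The 4 were EXPB9, EXPA32, EXPB17 and EXPB10, with differences of -3.81 ± 0.64 (adjusted p = 0.000963), -3.40 ± 0.78 (adjusted p = 0.00579), -3.31 ± 0.49 (adjusted p = 0.000401) and -2.45 ± 0.71 (adjusted p = 0.0205). In all 4 the optimal arrays of line 252 were above those of line 082, while their heated arrays overlapped between the lines. EXPA32 and EXPB10 passed the filter on dim probe sets through those arrays of line 252, so the filter favoured their place among the 4. With arrays centred at their 75th percentile 2 had the higher change and 4 the lower, EXPA10 being added (1.11). Of all 33614 probe sets tested, 4229 then had the higher change and 3472 the lower.

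EXPA32 was above the array median on 4 arrays, 3 of them from line 252 at optimal temperature. It gave 1.54, 1.83 and 1.34 in heated 252 panicles against 205, 383 and 584 at optimal temperature, and 1.65, 0.853 and 0.921 in heated 082 panicles against 4.0, 80.8 and 5.43 at optimal temperature. All 6 heated arrays and 2 of the 3 optimal arrays of line 082 lay under the array median, so the size of the change depends on the constant added. In line 252 the log2 change was -4.42 ± 0.55 (adjusted p = 4.06e-05), or -7.13 with 1 added and -2.70 with 64 added. In line 082 it was -1.01 ± 0.55 (adjusted p = 0.136), although the 3 heated arrays lay under the 3 optimal ones, and it was called with 1 added (-2.71, adjusted p = 0.0435) or with array weights (-1.62, adjusted p = 0.0173).

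EXPB10, in the same allergen branch as EXPB9, gave 9.42, 20.7 and 13.6 in heated 252 panicles against 303, 192 and 638 at optimal temperature. In line 082 it gave 28.0, 2.34 and 9.96 in heated panicles against 15.6, 80.8 and 49.9 at optimal temperature. The groups overlapped in line 082 and not in line 252. On the log2 scale its difference between temperatures was -3.54 ± 0.50 in line 252 (adjusted p = 0.000112) and -1.09 ± 0.50 in line 082 (adjusted p = 0.0839). The called difference between the lines was lost without optimal replicate 3 of line 252 (-2.0, adjusted p = 0.0551), with array weights (-1.80, adjusted p = 0.0538) and with 1 added to each signal (-2.48, adjusted p = 0.135). EXPA32 and EXPB10 passed the filter on dim probe sets through the optimal arrays of line 252, where they were high, and the other beta members of the allergen branch, EXPB1 and EXPB13, were not analysed here.

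EXLA2 had the only difference in the other direction, 1.57 ± 0.42 (adjusted p = 0.0135). It gave 150.5, 208 and 204 in heated 252 panicles against 124, 124 and 167 at optimal temperature, and 144, 163 and 196 in heated 082 panicles against 235, 582 and 446 at optimal temperature. The optimal arrays of line 082 were the 3 highest of all 12. In line 082 EXLA2 changed by -1.17 ± 0.30 (adjusted p = 0.00480), and without optimal replicate 2 of that line it fell short of the fold minimum (-0.90), as it did after quantile normalization (-0.84) and with arrays centred at their 75th percentile (-0.99). Its probe set is marked as one that may bind other transcripts, and the gene's other probe set gave the same calls, with a change of -1.35 ± 0.30 in line 082 and a difference of 1.54 ± 0.43.

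The remaining calls in 1 line had no called difference. In line 252 alone, EXPA1 changed by -2.12 ± 0.38 (adjusted p = 0.000579), against a log2 value of -0.92 ± 0.38 in line 082, a difference with adjusted p = 0.109. EXPA6 changed by -1.41 ± 0.41 in line 252, a call lost without heated replicate 1 (-1.05, adjusted p = 0.0615) or heated replicate 2 (-1.18, adjusted p = 0.0607). Its difference between the lines had adjusted p = 0.138 with all arrays and was called without heated replicate 3 of line 252 (-1.79, adjusted p = 0.00478). EXPB8 and EXPB11 fell in line 082, with log2 changes of -1.17 ± 0.28 (adjusted p = 0.00374) and -1.40 ± 0.47 (adjusted p = 0.0235). EXPB8 fell short of the fold minimum without heated replicate 2 of that line (-0.97), and EXPB11 was not called in 4 fits, those without heated replicate 2, heated replicate 3, optimal replicate 1 or optimal replicate 3 of line 082 (-1.40 to -1.03, adjusted p between 0.0544 and 0.108). Quantile normalization ended both calls, with -0.65 for EXPB8 (adjusted p = 0.0785) and -1.06 for EXPB11 (adjusted p = 0.0639), and 64 added to each signal that of EXPB8 (-0.76).

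Replicate 3 of heated line 252 set what was called for EXPB7 and EXPB3. EXPB7 gave 161, 61.9 and 1395 in heated 252 panicles against 928, 967 and 700.0 at optimal temperature, and 54.8, 49.1 and 23.3 in heated 082 panicles against 1016, 532 and 746 at optimal temperature. In line 252 replicate 3 alone lay above the optimal arrays, while in line 082 the groups were far apart. Its log2 change was -1.70 ± 0.75 in line 252 (adjusted p = 0.0843), or -2.89 ± 0.39 (adjusted p = 0.000111) without replicate 3, and -3.74 ± 0.75 in line 082 (adjusted p = 0.00111).

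EXPB3 gave 2012, 1156 and 6581 in heated 252 panicles against 5936, 3366 and 4445 at optimal temperature, and 2397, 830.3 and 2767 in heated 082 panicles against 9689, 6694 and 9095 at optimal temperature. Replicate 3 was again the highest of the heated arrays, and the groups of line 082 did not overlap. The log2 change was -0.84 ± 0.55 in line 252 (adjusted p = 0.235), or -1.54 ± 0.44 (adjusted p = 0.0144) without replicate 3, and -2.24 ± 0.55 in line 082 (adjusted p = 0.00412). With that array left out, 13 of 24 expansins fell and 1 rose in line 252, against 20.0% and 9.43% of all probe sets tested in that fit, and 6 of 9 beta-expansins fell. The difference of heat changes was then called for 7 expansins, 5 lower and 2 higher, against 22.9% of all probe sets tested.

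EXPB6, EXPB2, EXPB3 and EXPB4 are direct neighbours in the gene table, and their behaviour can be set side by side. EXPB2 was too dim to be tested, with signals of 1.02 to 15.1 on all arrays. EXPB6 gave 378, 237 and 1204 in heated 252 panicles against 399, 279 and 255 at optimal temperature, and 380.0, 142 and 285 in heated 082 panicles against 677, 362 and 341 at optimal temperature. Replicate 3 of heated line 252 was the highest of its group for EXPB6, EXPB3 and EXPB4 alike. EXPB6 was not called in line 252 (0.63 ± 0.51, or -0.02 ± 0.40 without heated replicate 3) or line 082 (-0.77 ± 0.51).

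Among bright alpha-expansins, EXPA10 and EXPA2 were called in line 082 alone. EXPA10, induced by aluminium in rice roots, gave 1236, 1050.3 and 928 in heated 252 panicles against 2435, 1908 and 1873 at optimal temperature, and 856, 1039 and 966 in heated 082 panicles against 2613, 4177 and 4548 at optimal temperature. Heated arrays were under optimal arrays in both lines. On the log2 scale its difference between temperatures was -0.94 ± 0.20 in line 252, where the adjusted p of 0.00219 passed and the size fell short of 1, and -1.93 ± 0.20 in line 082 (adjusted p = 7.86e-06). The difference between the lines, 0.99 ± 0.29 (adjusted p = 0.02), was also just short of 1, and it was called in 6 of the 12 fits without 1 array, whose values ran over all 12 from 0.84 to 1.24, and with array weights (1.16, adjusted p = 0.000932).

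EXPA2 gave 458, 479.9 and 411 in heated 252 panicles against 1102, 468 and 770.1 at optimal temperature, and 646, 261 and 684 in heated 082 panicles against 1983, 1624 and 1197 at optimal temperature. Its groups overlapped in line 252 and not in line 082. Its log2 change was -0.69 ± 0.36 in line 252 (adjusted p = 0.134) and -1.65 ± 0.36 in line 082 (adjusted p = 0.00184), and the difference had adjusted p = 0.178.

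At optimal temperature the lines differed in 9 expansins, 6 higher and 3 lower in line 252, or 37.5% against 27.4% of all probe sets tested. The 6 were EXPB9 (3.94 ± 0.45, adjusted p = 2.54e-05), EXPB17 (3.76 ± 0.34, adjusted p = 4.48e-06), EXPA32 (3.44 ± 0.55, adjusted p = 0.000288), EXPB10 (2.58 ± 0.50, adjusted p = 0.00116), EXPA1 (1.44 ± 0.38) and EXPA6 (1.13 ± 0.41). Their arrays did not overlap between the lines at this temperature. EXPA32 and EXPB10 passed the filter on dim probe sets through the optimal arrays of line 252, where they were high. The filter thus favoured their place among the 6. EXLA2 (-1.42 ± 0.30, adjusted p = 0.00181), EXPA3 (-1.09 ± 0.35, adjusted p = 0.0222) and EXPA2 (-1.07 ± 0.36, adjusted p = 0.0275) were lower in line 252. EXPA3 passed the filter on dim probe sets only through arrays of line 082, 2 heated and 2 optimal, where it was higher. Its place among the 3 was thus favoured by the filter. As deposited, members called higher can be read against 15.3% of all tested probe sets and those called lower against 12.1%. Scaling to the hybridization spikes gave 6 higher and 1 lower, against 7229 and 3160 of all 33614 probe sets tested. The 75th percentile gave 5 and 4, against 4057 and 4899.

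The calls of the smaller line differences were lost in some fits with 1 array fewer, whose values are given beside the adjusted p. EXPA6 (adjusted p = 0.0403 with all arrays) was lost in each fit without 1 of the 6 optimal arrays, with values of 0.96 to 1.27 and adjusted p between 0.0514 and 0.112. EXPA2 was lost without optimal replicate 2 or 3 of line 252 or optimal replicate 1 or 2 of line 082 (-1.11 to -0.76, adjusted p between 0.0581 and 0.126). EXPA3, whose signals were 21.5, 27.1 and 9.86 in line 252 and 61.6, 50.7 and 61.7 in line 082 at optimal temperature, was lost without optimal replicate 3 of line 252 or optimal replicate 1 or 3 of line 082 (-1.05 to -0.88, adjusted p between 0.0517 and 0.0912). Scaling to the hybridization spikes also ended the calls of EXPA2 (-0.83) and EXPA3 (-0.95), and the 75th percentile that of EXPA6 (0.95). EXPA3 was also lost after quantile normalization (-0.94, adjusted p = 0.0592), with 1 added (-1.63, adjusted p = 0.0644) and with 64 added (-0.55). EXPA6 was also lost with no filter (adjusted p = 0.0524) and with no intensity trend in the fit (adjusted p = 0.0577). EXPA3 was near or under the array median throughout. At this temperature the endosperm markers were higher in line 082, as the sums above show. The summed dividing-cell markers were higher in line 252, at 18681 on its lowest array against 18127 on the highest of line 082. Of these 11 markers 3 were called. The part of both marker lists in the line differences was not tested.

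At high temperature 0 of 24 expansins were called between the lines by limma, against 1.76% of all probe sets tested (0.622% higher and 1.14% lower in line 252). At an unadjusted p under 0.05 in limma there were 4 of 24, against 4139 of all 33614 probe sets tested. The 4 were EXPA8 (-1.33 ± 0.36), EXPA3 (-1.07 ± 0.35), EXPB7 (2.25 ± 0.75) and EXPB11 (1.08 ± 0.47). With array weights EXPA8 was called (-1.38, adjusted p = 0.0249), and without heated replicate 2 of line 252 EXPB7 was (3.14). Without heated replicate 3 of line 252 EXPB7 stood at 1.05 ± 0.39 (adjusted p = 0.336) and EXPB11 at 0.78 ± 0.51. In that fit EXPA8 stood at -1.53 ± 0.40 (adjusted p = 0.109) and EXPA3 at -0.91 ± 0.39. EXPA8, known from rice root growth, gave 20.0, 23.2 and 40.9 in heated 252 panicles against 83.2, 78.8 and 120.4 in heated 082 panicles, without overlap. It passed the filter on dim probe sets mainly through the heated arrays of line 082, where it was high. It was above the array median on 3 of them, on 1 optimal array of that line and on no array of line 252. EXPA3 passed the filter only through arrays of line 082, 2 heated and 2 optimal. The filter thus favoured the place of EXPA8 and EXPA3 among the 4. Over all 29 members the median line difference was 0.16 under heat and 0.21 at optimal temperature, against 0.029 and 0.005 over all 57194 rice probe sets. It was 0.01 for alpha- and 0.45 for beta-expansins under heat, and 0.20 and 0.27 at optimal temperature.

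**Figure D4:**
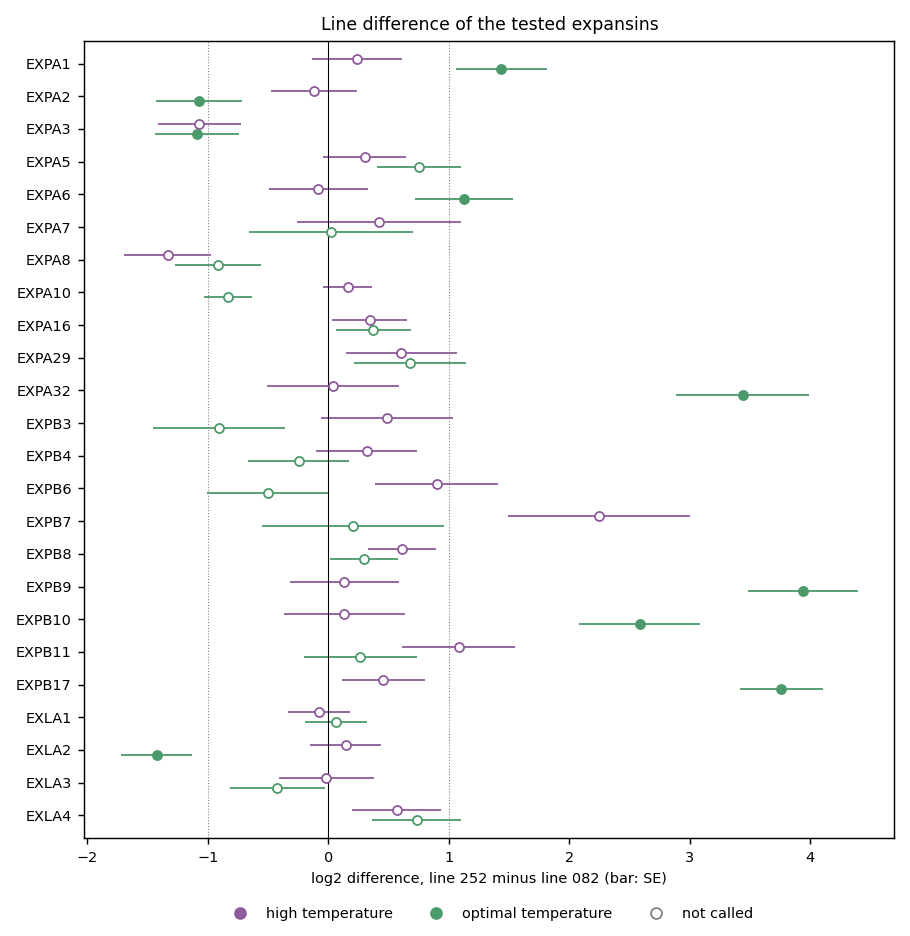
Log2 difference of each tested expansin, line 252 minus line 082 (x axis), at high temperature (purple) and optimal temperature (green), with bars of 1 SE and open points where the gene was not called. The purple points are all open, and EXPB9, EXPB17, EXPA32 and EXPB10 have the largest green values.

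Alpha- and beta-expansins were compared through the mean log2(signal + 16) over all 14 alpha and all 11 beta members on each array, with no filter and no test. The level of each mean depends on its probe sets, so only differences between groups are read. The beta mean was 7.28 ± 0.60 in heated 252 panicles against 9.18 ± 0.11 at optimal temperature, and 6.68 ± 0.36 in heated 082 panicles against 8.27 ± 0.21 at optimal temperature (SD, n = 3 each). The alpha mean was 6.40 ± 0.25 in heated 252 panicles against 7.89 ± 0.12 at optimal temperature, and 6.50 ± 0.20 in heated 082 panicles against 7.59 ± 0.14 at optimal temperature. Both means were lower on all heated arrays than on all optimal arrays of the same line.

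The alpha mean minus the beta mean was -0.87 ± 0.36 in heated 252 panicles (-1.26 to -0.55) against -1.29 ± 0.16 at optimal temperature (-1.48 to -1.16). In line 082 it was -0.18 ± 0.16 in heated panicles (-0.33 to -0.02) against -0.69 ± 0.27 at optimal temperature (-0.99 to -0.45). The heated and optimal arrays overlapped in line 252 and not in line 082. The heat change of this score was 0.42 in line 252, or 0.61 without heated replicate 3, and 0.50 in line 082. With the median over members in place of the mean it was 0.38 in line 252 and 1.74 in line 082. In line 252 the beta mean changed by -1.90 and the alpha mean by -1.48, and in line 082 by -1.59 and -1.09. The median of the members' own changes was -0.86 for beta and -0.90 for alpha in line 252, and -1.34 and -0.56 in line 082. The larger beta fall in line 252 thus held for the mean and not for this median.

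The heat change of the score differed by -0.08 between the lines with the mean over members, which turned in sign without heated replicate 3 of line 252 (0.11), and by -1.37 with the median, so its size depends on how members are averaged. Between the lines the score was lower in line 252 at both temperatures, with differences of -0.69 under heat and -0.60 at optimal temperature. The beta mean had a line difference of 0.60 and the alpha mean of -0.09 at high temperature, or 0.26 and -0.24 without heated replicate 3 of line 252. At optimal temperature they had 0.90 and 0.30. The median over members in place of the mean turned the sign at optimal temperature (0.75). The expansin-like A mean was 8.77 ± 0.42 in heated 252 panicles against 9.19 ± 0.08 at optimal temperature, and 8.62 ± 0.13 in heated 082 panicles against 9.45 ± 0.07 at optimal temperature.

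**Figure D5:**
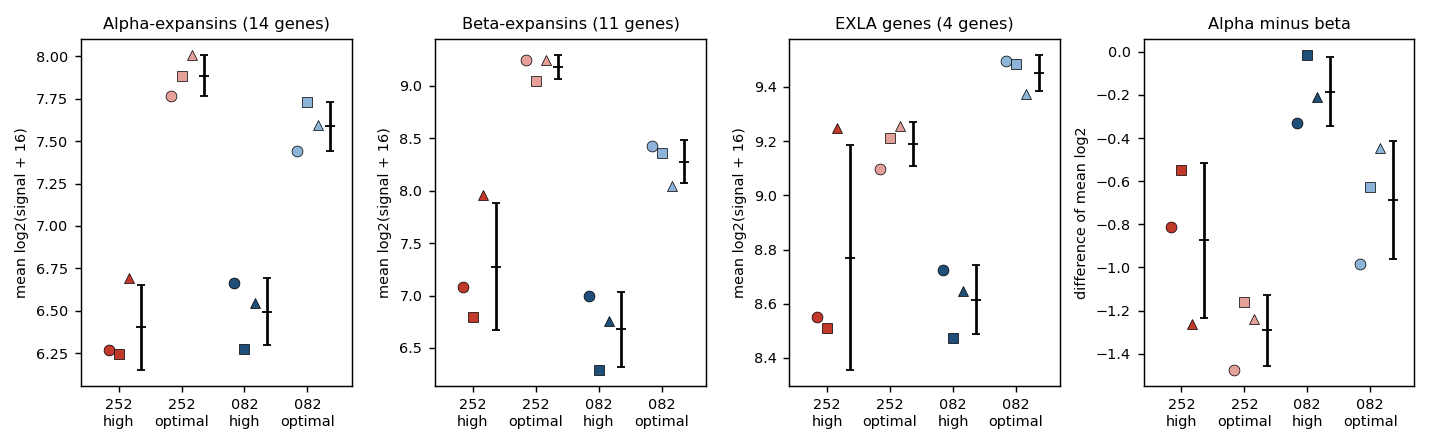
Mean log2(signal + 16) over the alpha-expansins, beta-expansins and expansin-like A genes, and the alpha mean minus the beta mean, on each of 12 arrays (circles, squares and triangles for replicates 1, 2 and 3), with the mean and SD of 3 arrays beside each group. Beta means lie at 6.29 to 7.95 on heated arrays and 8.04 to 9.24 on the others.

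The remaining alpha-expansins tested were not called in either line. EXPA3 had a log2 difference of -0.50 ± 0.35 in line 252 and -0.52 ± 0.35 in line 082, EXPA16 of -0.32 ± 0.31 and -0.28 ± 0.31, and EXPA29 of -0.64 ± 0.46 and -0.57 ± 0.46, in the same order of lines. EXPA8 had the values 0.25 ± 0.36 and 0.67 ± 0.36, and after quantile normalization it was called higher in line 082 (1.26, adjusted p = 0.0110). EXPA4, EXPA26, EXPA31, EXPB2 and EXPB18 were too dim to be tested, with signals of 0.56 to 121 on all arrays. The 14 tested expansins above the array median on all 12 arrays included all 4 expansin-like A genes, and EXPA3, EXPA8, EXPA32 and EXPB10 were above it on 4 arrays each.

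Other genes of wall growth gave a setting for these values, and their counts can be read against the 19.4% lower and 9.42% higher of all probe sets tested in line 252 and the 21.9% lower and 14.2% higher in line 082. Of 9 cellulose synthases, 6 fell after heat in line 252 and 8 in line 082, and the others were not called. CESA4 and CESA7, which build secondary walls, changed by -1.98 ± 0.36 and -2.23 ± 0.37 in line 252 and by -4.83 ± 0.36 and -4.94 ± 0.37 in line 082. Of 11 endoglucanases tested, 6 fell and 1 rose in line 252, and 7 fell and 1 rose in line 082, with GLU13 at -3.27 ± 0.46 and -3.46 ± 0.46 in that order. XTH8, the single xyloglucan endotransglucosylase matched, rose by 1.02 ± 0.32 in line 252 and 1.19 ± 0.32 in line 082.

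Aquaporins, the water channels that feed cell enlargement, were mixed. Of 17 tested, 7 rose and 3 fell in line 252, and 3 rose and 5 fell in line 082, against 9.42% higher and 19.4% lower of all probe sets tested in line 252 and 14.2% and 21.9% in line 082. PIP2-7, a plasma membrane aquaporin, changed by -7.30 ± 0.55 in line 252 and -5.90 ± 0.55 in line 082. Read against the same shares, of 3 mixed-linkage glucan synthases tested 1 fell and 1 rose in line 252 and 1 fell in line 082. The 3 pectin genes were the polygalacturonase PGL1 and the pectin methylesterase inhibitors PMEI8 and PMEI28. Of these PGL1 fell in both lines and PMEI8 in line 082. Of 5 gibberellin genes 1 was called, lower in line 082.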

How the data were processed

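Biotin-labelled cRNA from 12 rice panicle samples was read on Affymetrix arrays with 1 colour, per the labels' protocols. The deposited table gives linear intensity values per probe set, for which the submitters' processing notes name MAS5. The MAS5 settings and the array's genome build are not given in the sources used here, so no coordinates are printed. The number of arrays limits the precision. Names came from the platform annotation and a RefSeq gene table (ASM3414082v1). The members, gene lists and tests were chosen with earlier results of these data known.

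From these signals, log2(signal + 16) was fitted in limma 3.58.1 (R 4.3.3) with 4 group means over all 12 arrays, 8 residual degrees of freedom and empirical Bayes with an intensity trend. The 187 control probe sets were left out, and the 33614 above their array's median in at least 3 arrays were tested, each contrast adjusted by Benjamini-Hochberg. This filter kept 24 of the 29 expansins. Calls needed an adjusted p under 0.05 and a log2 change of at least 1. Named with per-array values were, per contrast and direction, the 3 called expansins with the largest changes, the 2 brightest of the alpha and of the beta family, and the measured members of the allergen branch. Array values of EXPB6 and EXPA8 were added after their values were seen. Alternatives were other pseudocounts, scalings, filters and probe-set rules, no trend, array weights, a replicate block and leaving out each array in turn. The fit was tested on simulated data. Same-numbered replicates did not deviate together (correlations between -0.203 and 0.0972), and no pair of arrays was identical.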

Additional observations from a re-analysis of the deposited data

Results flagged for a closer look

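The heat change differed between the lines for 5 expansins by the test of the difference itself (252 minus 082, log2 scale). EXPB9 differed by -3.81, EXPA32 by -3.40, EXPB17 by -3.31 and EXPB10 by -2.45, each with the lower heat change in line 252, where the gene was brighter at optimal temperature than in line 082. EXPA32 and EXPB10 passed the filter on dim probe sets through the optimal arrays of line 252, so the filter favoured their place here. EXLA2 differed by 1.57, with a called fall in line 082 and none in line 252. At optimal temperature 11 of 11 tested endosperm markers were called lower in line 252 than in line 082, against 12.1% of all probe sets tested. Of 11 dividing-cell markers 3 were called higher in line 252, against 15.3%. The part of these markers in the differences above was not tested.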

How the results depend on the processing

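The 41 calls of single expansins gave 1005 values under the alternatives. Of these 961 kept the call, 44 lost it and 0 turned in direction, and 30 of the 41 calls were kept under every alternative that tested them. Calls of expansins left out by the filter at the 75th percentile have no value there and do not count as lost. Counts of called expansins came to 2 for the difference of heat changes and 4 for the lines at optimal temperature under a filter at the 75th percentile, which left 13 expansins to test, and to 1 for the lines at high temperature with array weights. For the difference of heat changes the 75th percentile gave 2 higher and 4 lower, against 1 and 4. In line 252 scaling to the hybridization spikes gave 1 higher and 15 lower, against 1 and 11. In line 082 quantile normalization gave 2 higher and 9 lower, against 1 and 14. Between the lines at optimal temperature, scaling to the hybridization spikes gave 6 higher and 1 lower, and centring on the 75th percentile 5 and 4, against 6 and 3. Calls over all probe sets moved under these scalings too, with their counts given above. The replicate number as a block changed none of the counts (12, 15, 5, 0 and 9 for heat in line 252, heat in line 082, their difference, and the lines at high and at optimal temperature).

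The alpha mean minus the beta mean depended on how members were averaged. With the median over members its heat change was 1.74 in line 082, its difference of heat changes -1.37 and its line difference at optimal temperature 0.75. With 64 added, the difference of heat changes was 0.0371, and with 1 added the line difference at high temperature was -0.95. Without 1 array at a time, counts ranged from 10 to 14 for heat in line 252, 13 to 16 in line 082, 4 to 7 for their difference, 0 to 1 (EXPB7, without heated replicate 2 of line 252) between the heated lines and 7 to 9 between the lines at optimal temperature. The score ranged from 0.255 to 0.611, 0.352 to 0.621, -0.247 to 0.109, -0.852 to -0.496 and -0.754 to -0.485 in the same order, and its difference of heat changes was above 0 without heated replicate 3 of line 252 (0.109) or optimal replicate 1 of line 082 (0.0646). The cause was not tested. Signals under the array median leave the size of the changes of EXPA32, EXPB10 and EXPA3 uncertain.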
